A study of Drosophila melanogaster with 4 samples.

Results

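The left arm of chromosome 3 of Drosophila melanogaster, called 3L, carried 779 H3K36me3 regions in the first ChIP-seq replicate, 815 in the second and 800 in a further list made for the series as a whole. These are all regions whose sequence name is 3L, out of 4238, 4320 and 4468 regions in the same lists. Chromatin came from whole embryos of the wild-type laboratory strain Oregon-R aged 14 to 16 h, late in embryogenesis, and was crosslinked with 1.8% formaldehyde before immunoprecipitation (ChIP). The labels list 2 H3K36me3 ChIP libraries and 2 input libraries, and the inputs have no region list of their own. All groups share strain, genotype and stage, and there is no treatment or mutant to compare. Whether each replicate had its own collection of embryos is not in the labels, and the spread between replicates may therefore be technical. Whole embryos mix many tissues, and a region marked in few cells cannot be told apart from one marked weakly in all.

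H3K36me3 is histone H3 trimethylated at lysine 36. In flies the mark is laid down by Set2, an enzyme that travels with elongating RNA polymerase II, so it covers the bodies of transcribed genes and tends to be strongest toward their 3' ends. Low coordinates of 3L lie at the telomere and high coordinates at the centromere, where gene-rich euchromatin passes into repeat-rich heterochromatin packaged by other histone marks. Each list gives a region's start, its end and a score by the authors whose scale is not stated. Gene names cannot be attached to the regions, because no annotation of the build of the lists, FlyBase release 5, was used here.

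Regions covered 17.9% of the 24543557 bases of 3L in replicate 1 and 16.6% in replicate 2, a mean of 17.2% ± 0.861 (SD, n = 2). The series-level list covered 18.5%. On the arms 2L, 3R and X pooled, which serve as background, the covered share was 18.4% in replicate 1 and 17.0% in replicate 2. The ratio of 3L to these arms was 0.973 and 0.980 in the replicates (mean 0.976 ± 0.00495, SD, n = 2), so 3L lay slightly below them in both. Taken singly, 3L was covered less than 3R (19.0% and 17.7%) and X (18.9% and 17.3%) and more than 2L (17.1% and 15.8%). The gap between the means of 3L and 2L was smaller than the SD of either, while its direction was the same in each replicate. These SDs hold the offset between replicates that the arms share, so they do not measure the spread of that gap. All arms come from the same 2 ChIP libraries, and an exact two-sided sign-flip permutation test over their 2 paired differences cannot give a p below 0.5, so no test of arms over libraries was made, and arms are set side by side as descriptions.

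Regions on 3L were kilobases wide. The median width was 4498 bp in replicate 1 and 4090 bp in replicate 2, with the middle 50% from 3139 to 7074.5 bp and from 2921.5 to 6178 bp. The narrowest region was 1310 bp in replicate 1, 1301 bp in replicate 2 and 1001 bp in the series-level list. Shorter marked stretches thus have no value in these lists. There were 31.7 regions per Mb in replicate 1 and 33.2 per Mb in replicate 2. The deposited score had a median of 1.55 in replicate 1 and 1.56 in replicate 2. Wide regions scored higher, with a Spearman correlation of width and score of 0.713 over 779 regions and 0.721 over 815, given as a description since both come from the same call. In replicate 1 the 51 regions under 2 kb had a median score of 0.439, and the 86 regions from 10 to 20 kb had a median score of 1.90. In replicate 2 these medians were 0.632 for 65 regions and 1.93 for 59 regions.

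The mark was unevenly spread along the arm. In blocks of 1 Mb counted from the telomeric end, the covered share ran from 5.04% to 29.8% in replicate 1 and from 3.67% to 28.4% in replicate 2. The SD over the 25 blocks was 6.99 points in replicate 1, far above the mean difference of 1.22 points between replicates. The replicates placed rich and poor blocks alike, with a Pearson correlation of 0.998 over the 25 blocks, a description of 2 libraries rather than a test. Replicate 1 was higher in 25 of 25 blocks.

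**Figure D1:**
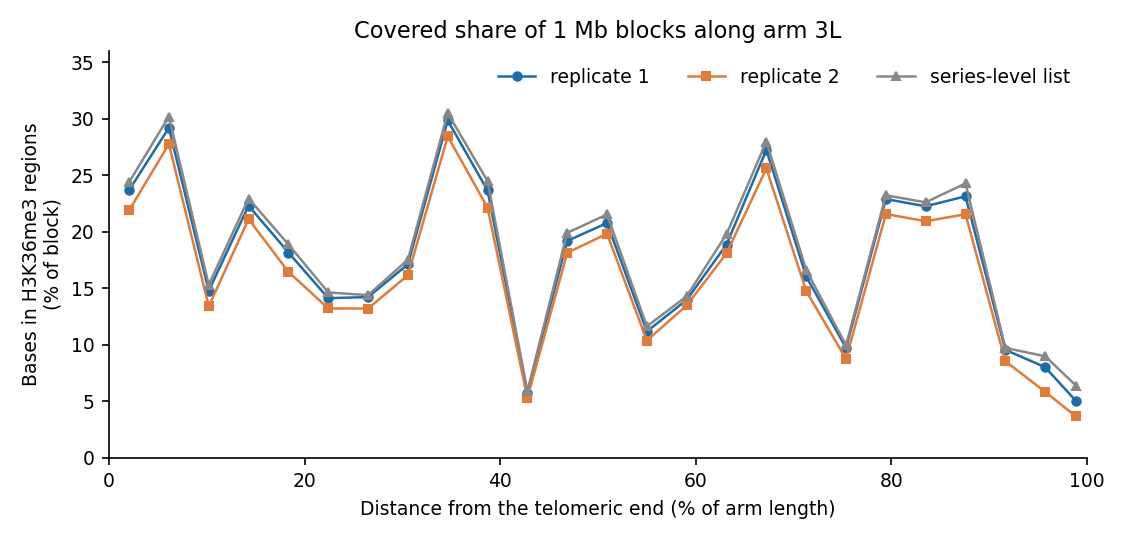
Percent of bases inside H3K36me3 regions in each 1 Mb block of 3L (y axis) against the distance of the block's centre from the telomeric end as percent of arm length (x axis), for replicate 1, replicate 2 and the series-level list. The highest block reaches 29.8% in replicate 1, and the last block at the centromeric end falls to 5.04% in replicate 1 and 3.67% in replicate 2.

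By the mean of the replicates, the 4 richest blocks lay at 8 to 9 Mb, 1 to 2 Mb, 16 to 17 Mb and 9 to 10 Mb. At 8 to 9 Mb, regions took up 29.8% of the block in replicate 1 and 28.4% in replicate 2. It held 44 and 49 regions, with median widths of 5948.5 and 5159 bp. The block at 1 to 2 Mb was covered to 29.2% and 27.8%, with 48 and 51 regions. The block at 16 to 17 Mb reached 27.2% and 25.6% in another way. It held 51 and 56 regions, the most of any block, but they were narrower, with medians of 3815 and 3741 bp, and lower in score, with medians of 1.35 and 1.36. The block at 9 to 10 Mb was covered to 23.64% and 22.1%, and in replicate 1 the block at 0 to 1 Mb, at 23.67%, lay just above it. Rich blocks were thus found near the telomere, in the distal middle of the arm and in its proximal part.

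The 4 poorest blocks were the 3 at the centromeric end and 1 in the interior. In the interior block, from 10 to 11 Mb, regions took up 5.77% in replicate 1 and 5.28% in replicate 2, beside the rich block at 9 to 10 Mb. It held 11 regions in each replicate, of ordinary median width (3972 and 3804 bp) and ordinary median score (1.54 and 1.57). Regions there were few rather than low in score. From 22 Mb on, the covered share fell to 9.55% and 8.54%, then to 8.01% and 5.83%, and to 5.04% and 3.67% in the last, shorter block, which was counted at its own length. Across the arm, 10 of 25 blocks were covered above 20% in replicate 1 and 9 in replicate 2, and 5 were below 10% in each.

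How many regions a block held went with its covered share more closely than how wide or how strongly scored they were. Over the 25 blocks, covered share and regions per Mb had a Pearson correlation of 0.935 in replicate 1 and 0.949 in replicate 2. For median width it was 0.618 and 0.430, and for median score 0.350 and 0.150. Covered share is made of number and width, so the first of these correlations is in part arithmetic, and all are descriptions over blocks of the same library. Median scores per block ranged from 0.763 to 1.82 in replicate 1, with the lowest at the centromeric end, and from 1.23 to 1.75 in replicate 2, with the lowest at 18 to 19 Mb.

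In stretches of 5 Mb the arm had a richer distal part, a poor middle and a poor end. In the first 5 Mb the share was 21.6% in replicate 1 and 20.1% in replicate 2, and in the next 5 Mb 19.8% and 18.6%. From 10 to 15 Mb the share was 14.2% and 13.4%, and gaps of 100 kb or more took up 57.9% of the sequence there, the most of the 5 stretches. From 15 to 20 Mb the share rose again to 18.9% and 17.7%, and from 20 Mb to the end of the sequence it was 14.5% and 13.0%. Regions numbered 177, 168, 126, 179 and 129 in these stretches in replicate 1, and 188, 178, 132, 192 and 125 in replicate 2. Those of 10 kb or more numbered 28, 21, 15, 18 and 9 in replicate 1 and 18, 15, 11, 11 and 6 in replicate 2. The distal 5 Mb thus held the most wide regions in both replicates, and the last stretch the fewest.

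A straight line through the 1 Mb blocks fell by 0.350 percentage points per Mb toward the centromere in replicate 1 and fell by 0.352 in replicate 2. Most of this slope came from the centromeric end. Without the blocks centred in the 2 Mb nearest the centromere the mean slope was -0.170 ± 0.00741 points per Mb (SD, n = 2). That setting keeps the poor block that starts at 22 Mb, part of which lies in those 2 Mb. Without the blocks centred in the nearest 2.5 Mb, a limit chosen after the blocks were seen, that block is left out too. The mean slope was then -0.0776 ± 0.00696. The Pearson correlation of covered share with distance from the telomeric end was -0.369 in replicate 1 and -0.379 in replicate 2 over 25 blocks. Blocks thus scattered widely around the line, and the covered share did not fall evenly along the arm.

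The other arms gave different slopes when read from telomere to centromere. On 2L the mean slope was -0.400 ± 0.00903 points per Mb. It was -0.407 ± 0.00614 without the blocks centred in the last 2 Mb, so there it did not rest on the end. On 3R the mean slope was 0.108 ± 0.00940 and on X -0.0258 ± 0.0105 (SD, n = 2 each). Without the blocks centred in the last 2 Mb it was 0.0134 ± 0.00416 on 3R and 0.188 ± 0.0209 on X, where the sign turned. The incomplete last block of X, shorter than 50% of a block, was left out of its line, while the shorter last block of 3L was kept. With blocks of 500 kb, which keep that sequence of X, the mean slope was -0.112 ± 0.00327 on X and -0.316 ± 0.000662 on 3L (SD, n = 2 each). The slope of X thus depended on the block size. The SD between replicates does not measure how far the blocks scatter around a line.

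**Figure D2:**
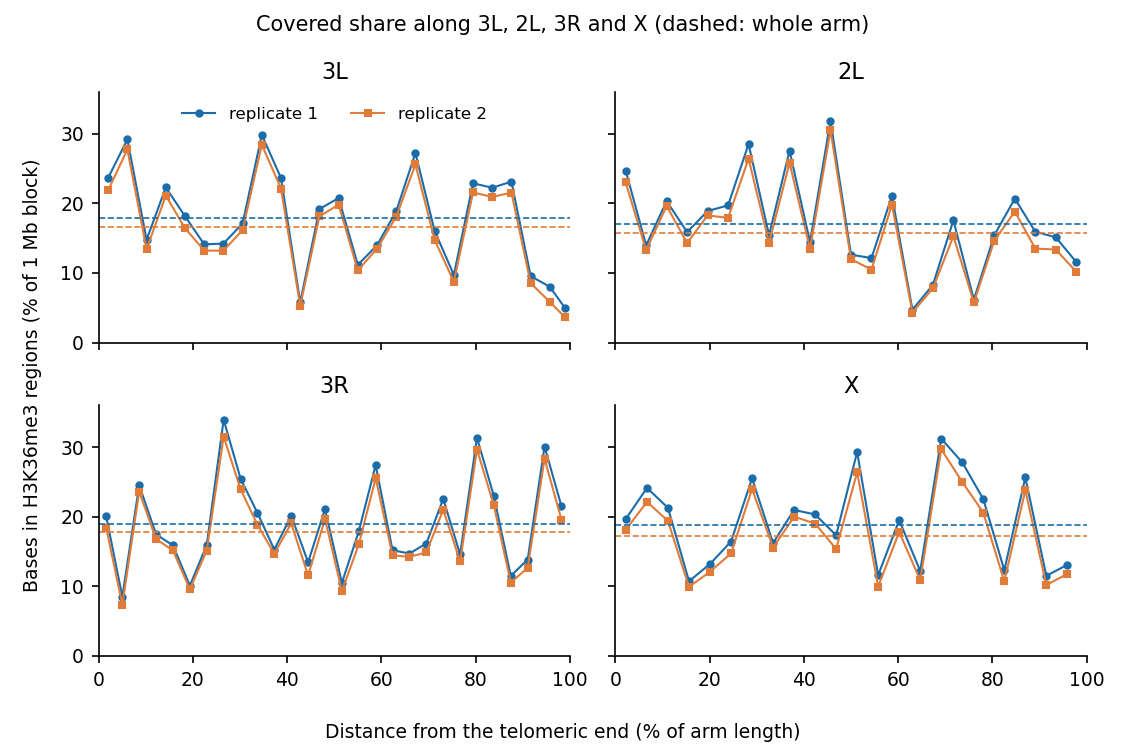
Percent of bases inside H3K36me3 regions per 1 Mb block (y axis) against distance from the telomeric end as percent of arm length (x axis) on 3L, 2L, 3R and X, with both replicates as lines and each whole-arm share as a dashed line. On 3L the blocks at the right-hand, centromeric end drop to 5.04% and 3.67%, while on 3R the last 2 blocks lie above the whole-arm shares of 19.0% and 17.7%.

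The centromeric end of 3L was set beside the same length of the other arms. In the 2.5 Mb nearest the centromere, from 22043558 to 24543557, regions covered 8.12% in replicate 1 and 6.55% in replicate 2, against 19.0% and 17.8% of the rest of 3L. That is a ratio of 0.428 and 0.368. The same ratio was 0.504 and 0.494 on X, 0.817 and 0.768 on 2L and 1.29 and 1.28 on 3R. So 3L and X were poor at this end, 2L moderately so, and 3R was richer there than elsewhere. How far each assembled arm reaches into heterochromatin, and how much of that sequence short reads can be placed on, was not measured here, so their part in these ratios was not tested.

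In proportion, the replicates differed most at this end of 3L. Replicate 1 held 45 regions and replicate 2 held 36 in the last 2.5 Mb. Of the 45 in replicate 1, 14 (31.1%) overlapped no replicate 2 region, against 31 of 734 (4.22%) on the rest of 3L. In replicate 2, 1 of 36 and 5 of 779 overlapped no replicate 1 region. On the other arms the shares for replicate 1 were 11 of 72 (15.3%) at the end against 7.97% on the rest of 2L, 3 of 50 (6.00%) against 5.56% on X, and 7 of 95 (7.37%) against 5.63% on 3R. The median score in the end of 3L was 1.25 in replicate 1, below the 1.56 of the rest, but 1.54 in replicate 2, against 1.56. The covered share of replicate 1 was 1.37 times that of replicate 2 in each of the last 2 blocks of the arm, against a median of 1.07 over all blocks.

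In every list the last called region reached the end of the sequence. The last region began at 24542144 in replicate 1 and at 24542222 in replicate 2, and ran 922 and 823 bases past the sequence length in the file headers, which were removed. What remained was 1414 bp wide with a score of 0.900 in replicate 1 and 1336 bp wide with a score of 1.35 in replicate 2. At the telomeric end the first region of both replicates started 141 kb into the arm, from 141239 to 146219 in replicate 1 (score 1.96) and from 141299 to 146301 in replicate 2 (score 2.03). The series-level list began earlier, with a region of 1173 bp from 135760 to 136932 and a low score of 0.321.

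Within rich blocks the mark was dense over shorter spans. In windows of 200 kb taken every 10 kb, the highest share on 3L was 63.7% in replicate 1 and 58.4% in replicate 2, in the window from 170001 to 370000, close to the telomere. This window held 17 and 19 regions with median widths of 6529 and 5349 bp. The next windows that did not overlap it ran from 3040001 to 3240000 (59.4% and 56.8%), from 15940001 to 16140000 (58.0% and 54.5%) and from 1470001 to 1670000 (55.5% and 52.6%). The same 4 windows led in both replicates and in the series-level list. The window at 3040001 was built of wide regions, 12 in replicate 1 with a median of 10026.5 bp and a median score of 1.93. The window at 15940001 was built of 19 narrower regions with medians of 4714 bp and 1.27. The densest windows of the other arms were higher, at 82.1% and 78.2% on 2L, 67.3% and 63.4% on 3R and 72.8% and 69.8% on X. No region at all was found in 129 of 2435 such windows of 3L in replicate 1 (5.30%) and in 156 in replicate 2 (6.41%). These shares were 6.44% and 7.45% on 2L, 5.49% and 5.40% on X, and lower on 3R, at 1.52% and 1.70%.

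Wide regions, of 10 kb or more, were spread over the whole arm. They numbered 91 of 779 (11.7%) in replicate 1, against 10.4% of the regions of 2L, 3R and X, and 61 of 815 (7.48%) in replicate 2, against 6.90%. These shares are near the background. The widths next to the limit were 9980 and 10009 bp in replicate 1 and 9964 and 10013 bp in replicate 2, so the limit cuts through a continuous range. Wide regions held 28.3% of the covered bases of 3L in replicate 1 and 19.4% in replicate 2. At least 1 lay in 24 of the 25 blocks in replicate 1 and in 22 in replicate 2. The most in a block was 9 in replicate 1, reached at 3 to 4 Mb and at 8 to 9 Mb, and 8 in replicate 2 at 3 to 4 Mb.

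The 10 longest regions of replicate 1 show how far the replicates drew the same domain. The longest ran from 2766697 to 2794588 (27892 bp, score 1.72), and replicate 2 drew it as regions of 19740 and 6140 bp with scores of 1.54 and 2.03. The second, from 3353458 to 3379199 (25742 bp, score 1.83), was drawn by replicate 2 as 3 regions of 10081, 4041 and 10105 bp. Another ran from 14000207 to 14024348 (24142 bp, score 2.02) and appeared as 21856 and 2139 bp. In each of these, replicate 2 covered at least 92.8% of the bases, so the difference lay in where a long domain was broken and not in whether it was marked.

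The next ran from 12509243 to 12532240 (22998 bp, score 2.11) and from 12743516 to 12766174 (22659 bp, score 1.74). Replicate 2 split the former into 17860 and 4775 bp and kept the latter whole at 22564 bp, which was its own widest region on 3L. The regions from 15561660 to 15581259 (19600 bp) and from 21529601 to 21547927 (18327 bp) were split in replicate 2 as well. Those from 23307282 to 23325451 (18170 bp), from 13493455 to 13511353 (17899 bp) and from 1295467 to 1313262 (17796 bp) were whole there, at 17613, 17237 and 17747 bp. The region at 23307282 lies in the poor centromeric end and had a score of 1.84 in both replicates, so the end held a long domain scored above the median of the arm among its few regions. The series-level list joined the region at 1295467 with its neighbour into 1 region of 23837 bp and kept the other 9 whole.

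Splitting went with width on every arm. In replicate 1, 36 of the 91 wide regions of 3L (39.6%) overlapped more than 1 replicate 2 region, against 37.8% of the wide regions of 2L, 3R and X. Of the 688 narrower regions of 3L, 39 (5.67%) did so, against 5.26% on the other arms. A wide region offers more room for a break, and the part of length alone in this share was not tested. In the other direction, 5 replicate 2 regions of 3L overlapped more than 1 replicate 1 region.

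Long stretches of 3L had no region in either replicate. There were 47 such gaps of 100 kb or more, counting the one at the telomere, and together they made up 9.15 Mb or 37.3% of the arm. The lengths next to the limit were 99538 and 101123 bp. Their median length was 175310 bp, 14 were at least 200 kb long and 5 at least 300 kb. Most spaces between regions were far shorter, with a median of 5741 bp over all 780 spaces, and 370 of them (47.4%) were 5 kb or less. Regions of 3L thus stood in close groups with long empty spans between them.

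The longest gap ran from 18163460 to 18611256 (447797 bp). The next were from 22298057 to 22705683 (407627 bp), from 13511354 to 13853373 (342020 bp), from 15157189 to 15491526 (334338 bp) and from 23345651 to 23670785 (325135 bp). The second and the fifth lie in the poor centromeric end and the other 3 between 13 and 19 Mb. The series-level list placed no whole region in the first 4 of these gaps and 3 in the fifth. Over all 47 gaps it placed whole regions in 9, adding 14 regions. A gap says that no region was called, not that the mark was absent, since the lists give no value outside regions.

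**Figure D3:**
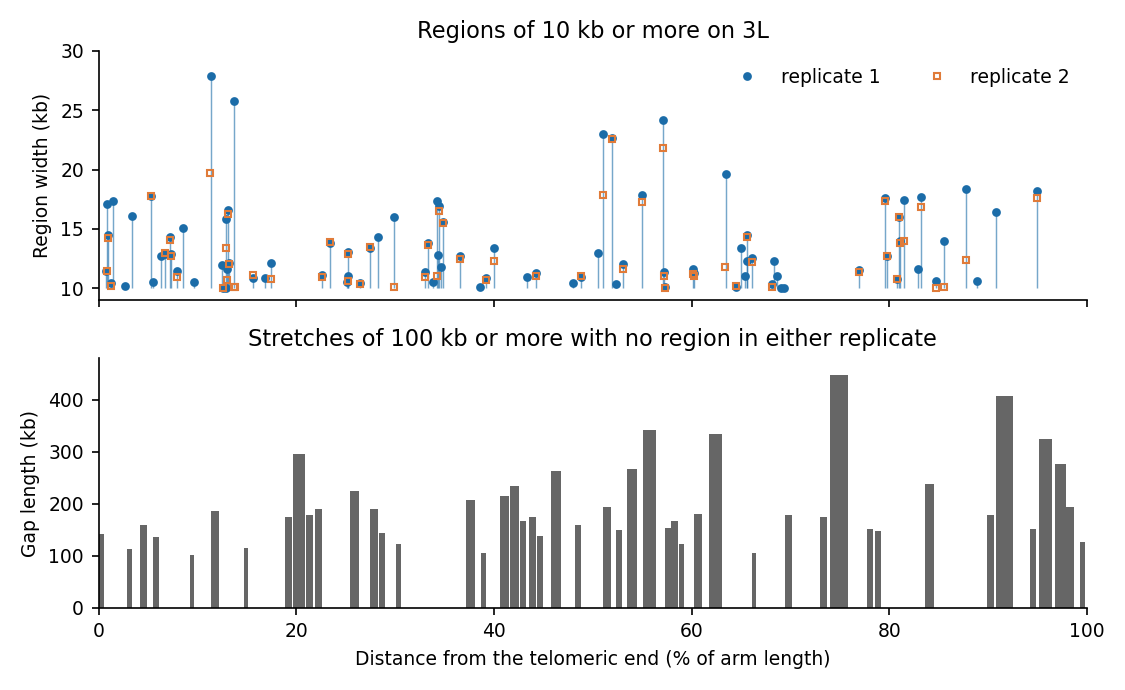
Upper panel, width in kb of each region of 10 kb or more on 3L (points, replicate 1 filled and replicate 2 open, with lines down to 10 kb for replicate 1); lower panel, length in kb of each of the 47 gaps of 100 kb or more (bars, as wide as the gap), both against distance from the telomeric end as percent of arm length. Wide regions occur along the whole arm, and the tallest bar is the gap of 447797 bp.

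Gaps took less of 3L than of 2L (45.6%) or X (44.0%), and 35.9% of 3R. With gaps taken from each replicate alone, the share was 37.9% and 39.6% on 3L and 36.5% and 41.0% on 3R, so the order of 3L and 3R turned between the replicates. There were 1.91 gaps of this size per Mb on 3L, against 2.43 on 2L, 2.19 on 3R and 2.50 on X. Their median length on 3L was the highest of the 4 arms, with 155204 bp on 2L, 158618 bp on 3R and 155829 bp on X. Gaps were thus fewer per Mb on 3L and longer at the median. Outside the gaps, regions covered 27.5% ± 1.37 of 3L (SD, n = 2), the lowest of the 4 arms, against 30.2% ± 1.68 on 2L, 28.6% ± 1.41 on 3R and 32.3% ± 1.99 on X. That order was the same in both replicates, with 28.5% and 26.5% on 3L. The difference between the means of 3L and 3R was below the SD of either, and that between 3L and X was above it. These SDs hold the offset between replicates that the arms share, so they do not measure the spread of a difference between arms. Per replicate the share was 29.6% and 27.6% on 3R and 33.7% and 30.9% on X.

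The stretches between gaps, called islands here, were longer at the median on 3L than on 2L and X, and shorter than on 3R. There were 47, with a median of 181591 bp, against 143863 bp on 2L, 208522 bp on 3R and 134026 bp on X. The longest ran from 7504027 to 9135302, a span of 1631276 bp in which no empty space reached 100 kb, and it held 66 regions in replicate 1 and 72 in replicate 2, covering 25.0% and 23.7%. The longest islands of the other arms were 899721 bp on 2L, 975656 bp on 3R and 1074334 bp on X. The next 2 islands of 3L spanned 1311709 bp from 20760324 to 22072032, where the poor centromeric end begins, and 1081945 bp from 19440550 to 20522494, which was covered to 32.1% and 30.4%. At the other extreme, 4 islands, chosen after their values were seen, were under 20 kb. The smallest was a single region from 10452414 to 10456565 (4152 bp, score 1.54) between gaps of 234254 and 167503 bp, and replicate 2 had it at 3739 bp with a score of 1.49.

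On 3L wide regions made up a larger share of the regions beside long gaps than of the others. In replicate 1, 92 of 779 regions (11.8%) bordered a gap of 100 kb or more of that replicate, against 13.9% on 2L, 3R and X. In replicate 2, 92 of 815 (11.3%) did so, against 14.3%. Of the bordering regions of replicate 1, 17 of 92 (18.5%) were 10 kb or wider, against 74 of 687 other regions (10.8%). In replicate 2 the counts were 11 of 92 (11.96%) and 50 of 723 (6.92%). On 2L, 3R and X together the order was opposite, with 23 of 334 bordering regions (6.89%) against 10.9% of the others in replicate 1, and 13 of 352 (3.69%) against 7.43% in replicate 2. The difference was largest on 2L, where only 2 of 108 bordering regions were that wide in replicate 1 and 2 of 109 in replicate 2. It was smaller on 3R, at 10.2% against 11.8% in replicate 1 and 6.02% against 8.51% in replicate 2. On X the shares were 8.33% against 9.52% and 2.73% against 5.80%. The counts are small, median widths of bordering and other regions of 3L were close (4230.5 and 4525 bp in replicate 1, 4180 and 4073 bp in replicate 2), and the difference between arms was not tested.

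**Figure D4:**
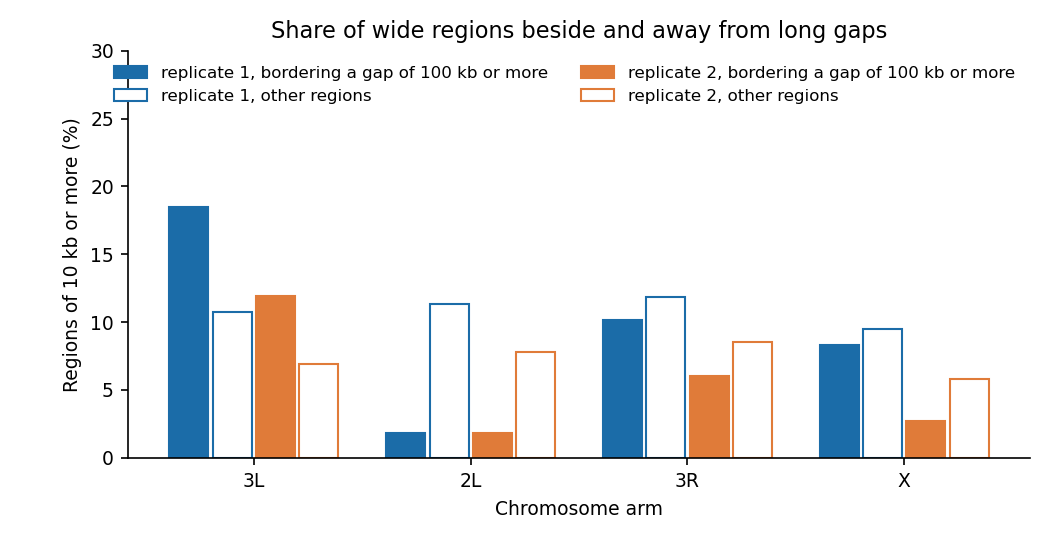
Percent of regions that were 10 kb or wider (y axis) among regions bordering a gap of 100 kb or more (filled bars) and among all other regions (open bars), for each arm and replicate. On 3L the filled bars (18.5% and 11.96%) stand above the open bars (10.8% and 6.92%), and on 2L they stand at 1.85% and 1.83%.

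Of the 10 longest regions of 3L, 3 stood directly beside such a gap in replicate 1. The domain at 2766697 ended where a gap of 186279 bp began. The one at 12509243 was followed by 193646 bp and the one at 13493455 by 342020 bp without a region. In replicate 2 the matching region of 17237 bp at 13493535 was followed by 388269 bp. Replicate 2 had split the first of these domains and the second, and its pieces nearest the gap were 6140 and 4775 bp wide. A wide region of 16414 bp from 22281643 to 22298056 (score 1.59) preceded the second longest gap in replicate 1, where replicate 2 had 3 regions of 5609, 6323 and 3043 bp.

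The 5 highest scores on 3L in replicate 1 belonged to regions from 4658 to 13837 bp wide. They were at 6736626 to 6745287 (8662 bp, score 2.62), 8990953 to 8996869 (5917 bp, 2.60), 432859 to 437516 (4658 bp, 2.60), 5748468 to 5762304 (13837 bp, 2.54) and 569123 to 578847 (9725 bp, 2.49). In replicate 2 the regions at the same 5 places scored 2.58, 2.70, 2.43, 2.24 and 2.48. The 5 highest of replicate 2 shared 3 of these places, at 8990975, 6736647 and 569132, and added 1490133 to 1495545 (5413 bp, score 2.54) and 1313397 to 1319288 (5892 bp, score 2.51). All of these places lie in the distal 9 Mb of the arm. The region at 1490133 opens the rich island that follows an empty stretch of 137204 bp in replicate 2.

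Most regions of 3L were found in both replicates. In replicate 1, 734 of 779 regions overlapped a replicate 2 region by at least 1 base (94.2%, 95% Wilson interval 92.4 to 95.7, counting error only), against 93.4% on 2L, 3R and X. In replicate 2, 809 of 815 overlapped a replicate 1 region (99.3%, interval 98.4 to 99.7), against 99.1%. These shares are near the background. Of the bases covered in either replicate, 91.6% were covered in both, against 90.6% on the other 3 arms. Median width was 1771 bp among the 45 unshared regions of replicate 1 and 4724.5 bp among its shared ones. Their median scores were 0.503 and 1.59. The 3 longest ran from 1605341 to 1608771 (3431 bp, score 0.750), from 16414434 to 16417769 (3336 bp, 0.644) and from 7557975 to 7560702 (2728 bp, 0.828). Replicate 2 had 6 unshared regions, the longest from 11169927 to 11171706 (1780 bp, 0.632), 15135492 to 15137096 (1605 bp, 0.490) and 23007414 to 23008931 (1518 bp, 0.653). Unshared regions were thus narrow and low in score.

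Regions with a single partner in the other replicate were usually wider in replicate 1. There were 654 such pairs on 3L, and replicate 1 was wider in 573 (87.6%), with a median difference of 205 bp over all pairs. On 2L, 3R and X replicate 1 was wider in 87.2% of 2007 pairs, with a median difference of 222 bp, so 3L was near the background. The excess was larger in proportion among narrow regions. In the 147 pairs with a mean width under 3 kb the replicate 1 width was a median of 1.09 times that in replicate 2, with the middle 50% from 1.03 to 1.18. In the 51 pairs of 10 kb or more it was 1.02 times, with the middle 50% from 1.00 to 1.03. Scores of the pairs had a Pearson correlation of 0.962 and widths on a log scale one of 0.982 over the 654 pairs, as a description. Depth per library is unknown, and its part in the difference of widths was not tested.

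**Figure D5:**
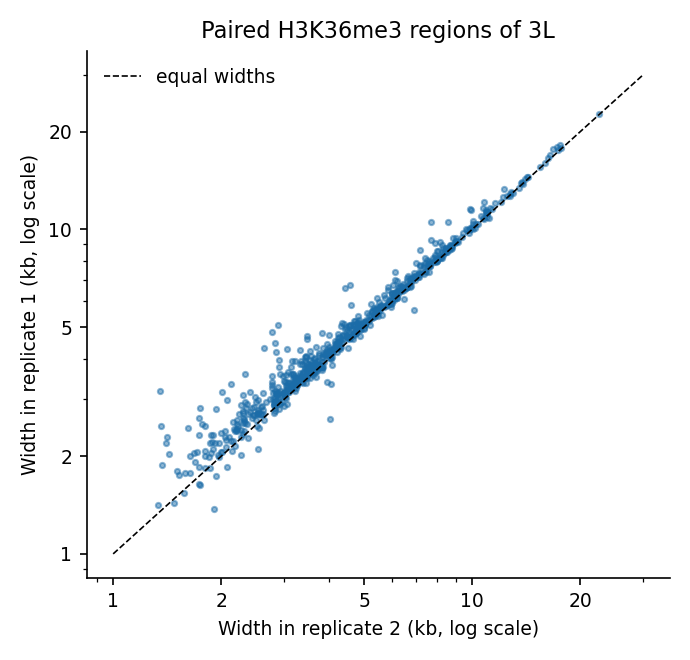
Width of each of the 654 paired regions of 3L in replicate 1 (y axis, kb, log scale) against its width in replicate 2 (x axis, kb, log scale), with a dashed line at equal widths. Most points, 573 of 654, lie above the line, and the scatter narrows toward wide regions.

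The series-level list on 3L held 800 regions, fewer than replicate 2 but over more bases. Both replicates covered 89.4% of its bases. Replicate 1 covered a further 7.20%, replicate 2 a further 0.688%, and 2.74% lay outside either. It overlapped every region of 3L in each replicate. Of its regions, 719 overlapped both replicates and 33 (4.12%) neither, against 4.08% of 2453 on 2L, 3R and X, which is near the background. The 33 were narrow and low in score, with medians of 1285 bp and 0.410. Of these 33, 7 lay in the 2.5 Mb nearest the centromere, where the list had 52 regions in all. At the same end of the other arms lay 10 of 34 such regions on 2L, 4 of 34 on 3R and 4 of 32 on X. The series-level list covered 8.87% of that end of 3L, more than either replicate.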

How the data were processed

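Per the labels' protocols, chromatin of Oregon-R embryos was immunoprecipitated for H3K36me3 and sequenced with matching inputs, and Bowtie 0.12.7 is named in the submitters' processing notes. The region caller, its threshold and how the series-level list was made were not given in the sources used here. Each deposited score is the authors' own, on a scale that is not stated, and regions were ranked by it only inside 1 list. Scores of different lists stand side by side as descriptions, and whether the lists share a scale is not known. Other deposited values are start and end coordinates on FlyBase release 5, per the file headers. The lists hold no read counts, so depth is unknown.

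Regions of 3L, 2L, 3R and X were read in Python 3.11.15 (scipy 1.17.1, pandas 2.3.3, numpy 2.4.6), and the part of a region beyond the header length was removed. Covered share is the percent of bases in regions. Blocks of 1 Mb start at base 1, and a last block under 50% of that size was left out. Gaps are bases outside the regions of both replicates, ends of the arm included. Slopes are least-squares lines through block centres, and a slope without an end leaves out the blocks centred in it. The functions were checked on simulated regions, where 20 of 20 sets matched counting base by base.

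Named regions are the 10 longest of replicate 1, the 5 highest-scored and 3 longest unshared per replicate, the first and last of each list, the 5 longest gaps, and the 4 richest and 4 poorest blocks; others were chosen after their values were seen. The members and lists were chosen with earlier results of these data known. No test across regions was made, since regions of a library are not replicates.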

Additional observations from a re-analysis of the deposited data

How the results depend on the processing

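Across 10 results there were 57 alternative values. Of these, 24 lay within the spread between replicates, and 5 counts of long gaps lay within 1.5 times the main count. The other 28 lay beyond the limit set for their result. For the share of bases in both replicates, that limit was 0.0258 points, a counting error over bases taken as independent. It is not a spread between replicates, and both alternatives of this share are among the 28 by that narrow limit. Leaving out 1 of 2 replicates lies within the spread between replicates by construction, where the main value is their mean. The slope along 3L was below 0 in 9 of 9 settings. Keeping the higher-scored 50% of each list gave a covered share of 11.4%, a slope of -0.309 points per Mb, a range over blocks of 20.0 points, 16.3 regions per Mb, a median width of 5988 bp, 17.0% wide regions, 69 long gaps taking 58.5% of the arm, 83.3% of bases in both replicates and a ratio to the other arms of 0.960. Merging regions within 1 kb gave 25.3 regions per Mb, a median width of 5266 bp, 21.2% wide regions and 92.1% in both. The series-level list gave a covered share of 18.5%, a slope of -0.345, a range of 24.6 points and 35.6% in long gaps. The slope was -0.316 with blocks of 500 kb and -0.268 with blocks of 2 Mb. Both leave out an incomplete last block, which with blocks of 2 Mb held the poor sequence beyond 24 Mb. The slope was -0.170 without the 1 Mb blocks centred in the 2 Mb nearest the centromere. The range over blocks was 38.2 points with blocks of 500 kb and 29.9 with blocks shifted by 500 kb. Regions of at least 15 kb were 2.40% of all. Gaps of at least 50 kb numbered 112 and took 56.6% of the arm, and gaps of at least 200 kb numbered 14 and took 16.6%; replicate 2 alone gave 39.6% in gaps of 100 kb or more. By construction, keeping fewer regions lowers the covered share and the regions per Mb and raises the share in long gaps. Joining regions lowers the regions per Mb by construction, and other minimum sizes change the share of wide regions and the count and share of gaps. The cause of the other shifts, those of the series-level list included, was not tested. Without 1 replicate, the covered share ranged from 16.6 to 17.9%, the slope from -0.352 to -0.350, the range over blocks from 24.76 to 24.81 points, regions per Mb from 31.7 to 33.2, the median width from 4090 to 4498 bp, wide regions from 7.48 to 11.7% and the ratio from 0.973 to 0.980. No paired analysis was possible because no result comes from a test over samples and the inputs have no values here; arms were set side by side within each replicate. Without read counts, bases outside a region have no value, whether marked weakly or not at all.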
